A study of Mus musculus with 10 samples.

Results

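The genes described here are 35 factors that make ribosomes in the nucleolus: subunits and factors of RNA polymerase I, proteins of the small nucleolar ribonucleoproteins (snoRNPs), and proteins that process and assemble the precursor ribosomal RNA. They were taken from a list of gene symbols, each through probe sets that carry that single symbol in the platform annotation, and where a symbol had several of these the brightest one was used. All 35 were measured and passed the filter on dim probe sets, out of 14953 genes tested. Marrow of 5 Hspa9+/+ mice (wild type, littermates by their labels) and of 5 Hspa9+/- mice (heterozygous) was plated separately in methylcellulose medium that supports pre-B colonies, and B220+ cells were sorted from the colonies after 7 days. Each mouse gave 1 Mouse Gene 1.0 ST array. Hspa9 encodes mortalin, a chaperone of the mitochondrial matrix, and the heterozygous mice keep 1 normal allele. The sources used here give neither the ages and strain of the mice nor how the allele was made. Values are the authors' RMA levels on the log2 scale, and a difference is heterozygous minus wild type, with n = 5 arrays per genotype.

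A ribosome is begun in the nucleolus, where RNA polymerase I transcribes 1 long precursor RNA. The snoRNPs, guided by small nucleolar RNAs (snoRNAs), modify this precursor, and separate sets of proteins then cut, fold and assemble it into the small and the large ribosomal subunit. Growing and dividing cells such as large pre-B cells make many ribosomes, and many of these genes are textbook targets of the transcription factor Myc.

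Hspa9 was lower in the heterozygous samples, at 9.18 ± 0.244 (SD, n = 5) against 9.92 ± 0.378 in wild type, a difference of -0.73 (SE 0.185). The two-sided exact permutation test of this gene gave p = 0.0159 and limma an adjusted p of 0.345 over all genes. The B cell receptor genes Cd79a and Cd79b were bright on all arrays, from 11.56 to 12.13 and from 12.10 to 12.59. Macrophage genes were present too: the mean of 16 monocyte and macrophage markers ran from 5.51 to 8.79 in wild type and from 6.84 to 9.36 in heterozygous arrays, highest on wild type 1 and heterozygous 2, and 0 of the 16 passed the limma threshold. Neutrophil and megakaryocyte markers were also highest on these arrays. Those of the 35 genes that are given with array values are therefore also given without wild type 1 and heterozygous 2. In such bulk samples fewer cells of a type and less RNA per cell cannot be told apart.

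No ribosome biogenesis gene passed the test between the genotypes. Of the 35, 0 passed the limma threshold (adjusted p under 0.05 over all genes), as did 0 of all 14953 genes (0%), and the members' adjusted p ran from 0.403 to 0.967. At an unadjusted p under 0.05, 1 member was higher, Nob1, and 0 were lower, where 6.79% of all genes were higher and 4.25% lower. The differences ran from -0.43 to 0.39 with a median of 0.11, above 0 for 26 members and below 0 for 9. Over all genes tested the median was 0.06 and 61.3% lay above 0. Single arrays set the members' median: it was 0.02 without wild type 1, 0.24 without wild type 3 and 0.25 without heterozygous 2. In none of the 35 were the genotypes apart without overlap, a state found in 1.47% of all genes on the higher and 0.809% on the lower side. Members varied between mice of 1 genotype by a median SD of 0.39, against 0.23 over all genes tested, so the 95% intervals of their differences were wide. That SD was 0.31 over 110 other ribosome assembly genes and 0.31 over 17 cycling genes.

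**Figure D1:**
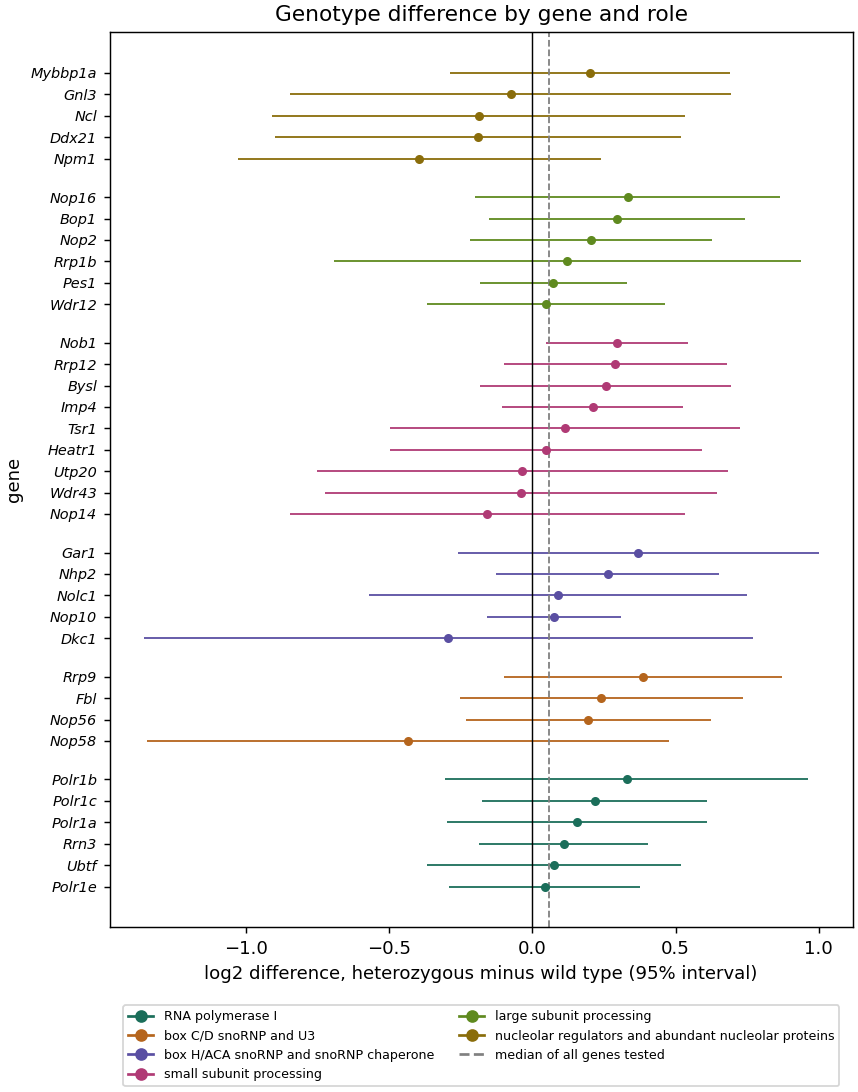
The log2 difference of each of the 35 genes, heterozygous minus wild type, with limma's 95% interval, grouped and coloured by role; the dashed line is the median of all genes tested, 0.06. The interval of Nob1 lies above 0, from 0.05 to 0.54, and those of the other 34 genes include 0.

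The RNA polymerase I genes all had differences above 0, from 0.04 to 0.33, and none passed. Polr1b, the second largest subunit, was at 6.78, 7.54, 7.98, 7.85 and 7.70 on wild type arrays 1 to 5 and at 8.04, 6.95, 7.95, 8.39 and 8.17 on heterozygous arrays 1 to 5. Its low values were wild type 1 and heterozygous 2, and 3 heterozygous arrays lay above every wild type array; the difference was 0.33 (SE 0.287, adjusted p = 0.629). Without those 2 low arrays it was 0.37 (SE 0.136, adjusted p = 0.264), and without wild type 1 alone 0.13. Polr1c, a subunit shared with RNA polymerase III, was at 8.72, 8.93, 8.79, 8.38 and 8.71 in wild type and 8.76, 8.61, 8.599, 9.22 and 9.43 in heterozygous arrays. Here only heterozygous 4 and 5 stood above the wild type range, for a difference of 0.22 (SE 0.178, adjusted p = 0.608), or 0.09 without heterozygous 5. Leaving out wild type 1 and heterozygous 2 gave 0.30 (SE 0.197). The largest subunit Polr1a was at 0.16, the initiation factor Rrn3 at 0.11, the ribosomal DNA binding factor Ubtf at 0.08 and the polymerase-associated subunit Polr1e at 0.04. Ubtf and Polr1e were at -0.06 and -0.04 without wild type 1.

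Of the box C/D snoRNP proteins, which carry out 2'-O-methylation, and the U3 snoRNP protein Rrp9, 3 had differences above 0 and 1 below. Rrp9 was at 6.95, 7.80, 7.46, 6.99 and 7.52 in wild type and at 7.53, 7.35, 7.43, 8.19 and 8.15 in heterozygous arrays. Heterozygous 4 and 5 again lay above all wild type arrays while the other three fell among them, and the difference, 0.39 (SE 0.220, adjusted p = 0.516), was the highest of the 35, though in size it was below those of Nop58 and Npm1. Without wild type 1 and heterozygous 2 it was 0.38 (SE 0.222). The methyltransferase fibrillarin, Fbl, was at 10.37, 11.14, 11.42, 11.25 and 11.39 in wild type and 11.43, 10.76, 11.35, 11.66 and 11.57 in heterozygous arrays, which differ by 0.24 (SE 0.224, adjusted p = 0.652). Its lowest arrays were wild type 1 and heterozygous 2, and the difference was 0.05 without the first, 0.39 without the second and 0.20 (SE 0.114) without both. The core proteins Nop56 and Nop58, which bind the same snoRNP, had differences of opposite sign. Nop56 was at 0.20 (SE 0.194) and Nop58 at -0.43 (SE 0.413, adjusted p = 0.658). Both were high on wild type 3 and heterozygous 1, Nop56 at 10.39 and 10.35. Nop58 was chosen after its values were seen, for its wide spread. It was at 8.19, 8.42, 9.88, 10.04 and 8.90 in wild type and 9.69, 8.58, 8.79, 8.24 and 7.96 in heterozygous arrays, so that wild type 3, wild type 4 and heterozygous 1 stood above the other seven. Without wild type 1 and heterozygous 2 its difference was -0.64 (SE 0.435), and with 1 array left out it ran from -0.69 without heterozygous 1 to -0.20 without wild type 4.

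Fbl and Wdr12 each had 2 probe sets. Among the 20 probe sets nearest in identifier to the brighter Fbl set, 17 belong to genes of chromosome 17, whereas Fbl lies on chromosome 7. Likewise 18 of the 20 nearest to the brighter Wdr12 set are of chromosome 7, and Wdr12 lies on chromosome 1. Whether these brighter sets read a near-identical copy of the gene was not tested, and both genes are uncertain for that reason. The dimmer sets have neighbours of the genes' own chromosomes. They gave differences of 0.34 for Fbl (adjusted p = 0.406) and -0.16 for Wdr12, against 0.05 with its brighter set.

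The box H/ACA snoRNP proteins, which convert uridine to pseudouridine, were likewise divided. Gar1 was at 7.19, 8.13, 8.74, 8.53 and 8.50 in wild type and 8.79, 7.93, 8.64, 8.93 and 8.66 in heterozygous arrays, for a difference of 0.37 (SE 0.286, adjusted p = 0.592). Nhp2, a small RNA-binding core protein, was at 9.87, 10.63, 10.53, 10.39 and 10.48 in wild type and 10.70, 10.31, 10.35, 10.86 and 10.996 in heterozygous arrays, for 0.26 (SE 0.177, adjusted p = 0.554). In both genes wild type 1 was the lowest array and a heterozygous array the highest. Without wild type 1 the differences were 0.11 and 0.14, and without heterozygous 2 as well they were 0.28 (SE 0.141) and 0.22 (SE 0.143). Dkc1, the pseudouridine synthase dyskerin and named after its values were seen, had the widest range of the 35, 2.36 log2 units or 5.12-fold. It was at 6.70, 7.63, 9.06, 9.04 and 7.92 in wild type and 8.89, 7.70, 7.97, 7.50 and 6.83 in heterozygous arrays. As with Nop58, wild type 3 and 4 and heterozygous 1 were high, and heterozygous 5 was near the bottom; the difference was -0.29 (SE 0.483). Leaving out wild type 1 gave -0.64, leaving out wild type 3 gave -0.05 and leaving out heterozygous 5 gave -0.06. With both wild type 1 and heterozygous 2 left out it was -0.62 (SE 0.457). The third core protein Nop10 was at 0.08 with a range of 0.44, the smallest of the set, and the snoRNP chaperone Nolc1 at 0.09, or -0.15 without wild type 1.

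Nob1 belongs to the 9 genes of the small subunit pathway, as the endonuclease that makes the final cut of its rRNA. It was at 8.38, 8.67, 8.48, 8.39 and 8.53 in wild type and 8.93, 8.48, 8.70, 8.96 and 8.86 in heterozygous arrays. All heterozygous arrays except heterozygous 2 lay above the highest wild type array, and the groups overlapped through that array alone. The difference was 0.30 (SE 0.113), with an unadjusted limma p of 0.0234 and an adjusted p of 0.403. Rrp12, a factor of nuclear export, showed the same order of overlap: 6.49, 6.77, 6.96, 6.88 and 6.94 in wild type and 7.02, 6.56, 7.00, 7.43 and 7.49 in heterozygous arrays, which differ by 0.29 (SE 0.177, adjusted p = 0.536). Without wild type 1 and heterozygous 2 the differences were 0.34 for Nob1 (SE 0.107, adjusted p = 0.221) and 0.34 for Rrp12 (SE 0.138, adjusted p = 0.283). The late factor Bysl was at 0.26, the U3-associated protein Imp4 at 0.21 and the GTPase-like factor Tsr1 at 0.11. The large processome proteins Heatr1, Wdr43, Utp20 and Nop14 were at 0.05, -0.04, -0.03 and -0.16, and each of these 4 had the opposite sign with some single array left out. Tsr1 was at -0.11 without wild type 1.

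The 6 large subunit genes had differences from 0.05 to 0.33. Bop1, which forms the PeBoW complex with Pes1 and Wdr12, was at 7.997, 8.16, 7.70, 7.80 and 8.04 in wild type and 8.07, 7.66, 8.06, 8.55 and 8.84 in heterozygous arrays. Heterozygous 4 and 5 were above every wild type array and heterozygous 2 below all of them, for a difference of 0.30 (SE 0.203, adjusted p = 0.560). It was 0.14 without heterozygous 5 and 0.45 (SE 0.191, adjusted p = 0.295) without wild type 1 and heterozygous 2. Its partners Pes1 and Wdr12 were at 0.07 and 0.05. Nop16, a nucleolar protein of the large subunit precursor, was at 7.75, 8.94, 8.99, 8.68 and 8.55 in wild type and 9.13, 8.38, 8.76, 9.19 and 9.13 in heterozygous arrays, for 0.33 (SE 0.242, adjusted p = 0.574). Wild type 1 stood lowest there by a wide gap, and without it the difference was 0.12, or 0.26 (SE 0.141) with heterozygous 2 left out too. The rRNA methyltransferase Nop2 was at 0.21 and Rrp1b at 0.12, the latter over a range of 2.12 log2 units. Wdr12 was at -0.12 and Rrp1b at -0.21 without wild type 1.

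The last group holds abundant nucleolar proteins and regulators, and 4 of its 5 members had differences below 0. Nucleophosmin, Npm1, a histone and ribosome chaperone, was at 9.99, 10.88, 11.61, 11.65 and 10.88 in wild type and 11.05, 10.47, 10.61, 10.60 and 10.30 in heterozygous arrays. Wild type 1 was the lowest of all, and heterozygous 1 was the only heterozygous array to reach the range of the other four wild type arrays. The difference was -0.39 (SE 0.287, adjusted p = 0.574), and -0.61 (SE 0.225, adjusted p = 0.263) without wild type 1 and heterozygous 2. Nucleolin, Ncl, which binds the precursor RNA, was at 10.13, 10.38, 11.61, 11.60 and 10.87 in wild type and 11.45, 10.50, 10.90, 10.64 and 10.15 in heterozygous arrays. Both ends of that range were reached in wild type, with heterozygous 5 next to the lowest array, and the difference was -0.19 (SE 0.327, adjusted p = 0.812). It was -0.38 without wild type 1, -0.01 without wild type 3 and -0.33 (SE 0.329) without wild type 1 and heterozygous 2. The RNA helicase Ddx21 was at -0.19 and nucleostemin, Gnl3, at -0.08; without wild type 3 they were at 0.0010 and 0.12. Mybbp1a, a partner of Myb and of RNA polymerase I, was the exception at 0.20 (SE 0.222, adjusted p = 0.698), with wild type values of 8.39, 9.07, 9.31, 9.24 and 9.21 and heterozygous values of 9.34, 8.59, 9.19, 9.65 and 9.47. Its difference was 0.04 without wild type 1, 0.37 without heterozygous 2 and 0.20 (SE 0.121) without both.

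**Figure D2:**
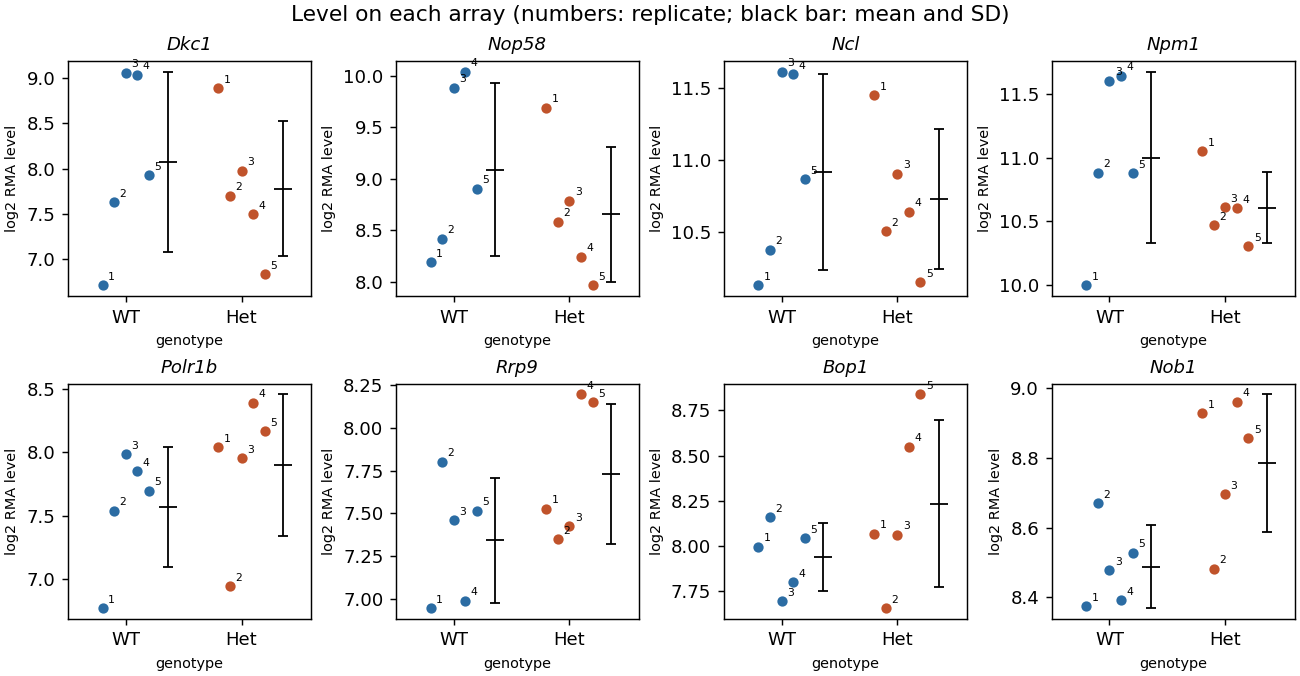
Log2 RMA level of 8 genes on every array, with the replicate number beside each point and the mean and SD (n = 5) as black bars; each panel has its own axis, which does not start at 0. In the upper row wild type 3, wild type 4 and heterozygous 1 are high and heterozygous 5 is low; in the lower row heterozygous 4 and 5 are among the highest arrays.

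Most of the genes varied widely between single arrays. Over the 10 arrays, 26 of the 35 genes ranged over more than 2-fold, and the median range was 1.24 log2 units, against 0.76 over all genes tested. Related genes also varied more than the whole: the median range was 0.96 over 110 other ribosome assembly genes and 0.99 over 17 cycling genes. Wild type 1 was the lowest array for 27 genes, and for 21 genes wild type 1 and heterozygous 2 were the lowest pair. On heterozygous 2 all 35 genes lay below their own mean over the arrays, and on wild type 1, 34 of 35 did. The exception was Pes1, at 9.12 there and between 8.78 and 9.23 on all arrays. The median of the 35 genes, each set against its own mean, was -0.68 on wild type 1 and -0.37 on heterozygous 2, and from -0.09 to 0.33 on the other eight.

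**Figure D3:**
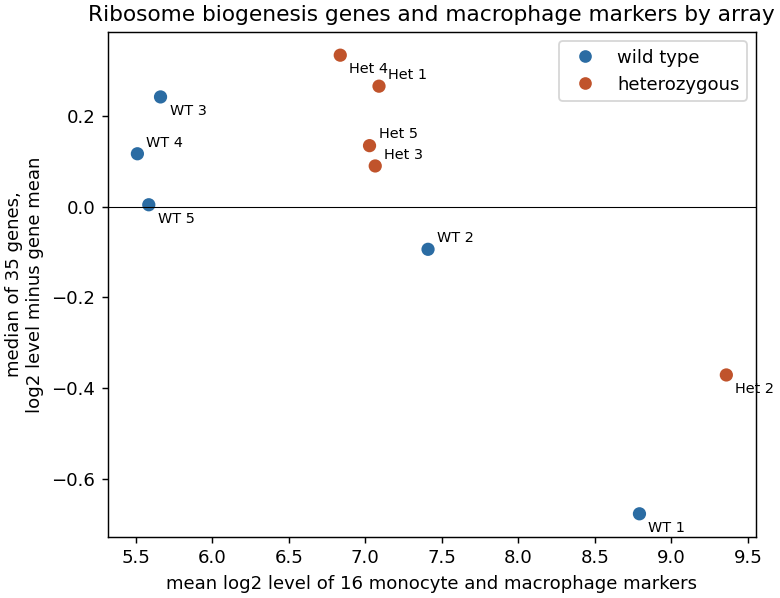
For each array, the mean log2 level of 16 monocyte and macrophage markers (x) and the median of the 35 ribosome biogenesis genes after subtraction of each gene's mean (y, log2 units). Wild type 1 and heterozygous 2, at 8.79 and 9.36 on the x axis, lie lowest at -0.68 and -0.37.

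Macrophage markers were thus highest on the 2 arrays where these genes were lowest, and on the other four heterozygous arrays, at 6.84 to 7.09, they lay above wild type 3, 4 and 5, at 5.51 to 5.66, but below wild type 2, at 7.41. With the marker mean as a covariate in the fit, 33 of 35 differences were above 0, with a median of 0.32, and 17 members were higher at an unadjusted p under 0.05, where 9.23% of all genes were higher. No member was lower in that fit, where 5.96% of all genes were. The smallest adjusted p among the 35 was 0.0680, for Gar1 at 0.71, followed by Polr1b at 0.66 (adjusted p = 0.110) and Fbl at 0.50 (adjusted p = 0.130), so that none passed. Npm1 and Nop58 remained below 0 there, at -0.14 and -0.15. Without wild type 1 and heterozygous 2 the median was 0.10. At an unadjusted p under 0.05, 4 members were then higher (Nob1, Polr1b, Rrp12 and Bop1) and 1 lower (Npm1). Over all genes 10% were higher and 6.09% lower in that fit. The members vary together over the arrays, so the 17 are not separate results. The marker mean also differs between the genotypes' arrays, so these fits cannot tell macrophage RNA and genotype apart. The part of macrophage RNA in the members' levels was not tested.

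The genes followed 2 patterns over the arrays. In a principal component analysis of the 35 genes after subtraction of each gene's mean, the first component held 67.4% of the variance and the second 26.7%, or 94.1% together. On the first, wild type 1 (-0.62), heterozygous 2 (-0.30) and wild type 2 (-0.21) lay at the low end and wild type 3 (0.45), wild type 4 (0.35) and heterozygous 1 (0.33) at the high end. The second set heterozygous 5 (0.56) and 4 (0.54) against wild type 1 (-0.36), wild type 4 (-0.34) and heterozygous 2 (-0.31). Over all genes tested the first 2 components held 52.8% and 23.0%. The first of these also set wild type 1 (0.46) and heterozygous 2 (0.52) against wild type 3 (-0.42) and 4 (-0.45), and the second had heterozygous 4 and 5 at one end, so both patterns were shared with the whole arrays.

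**Figure D4:**
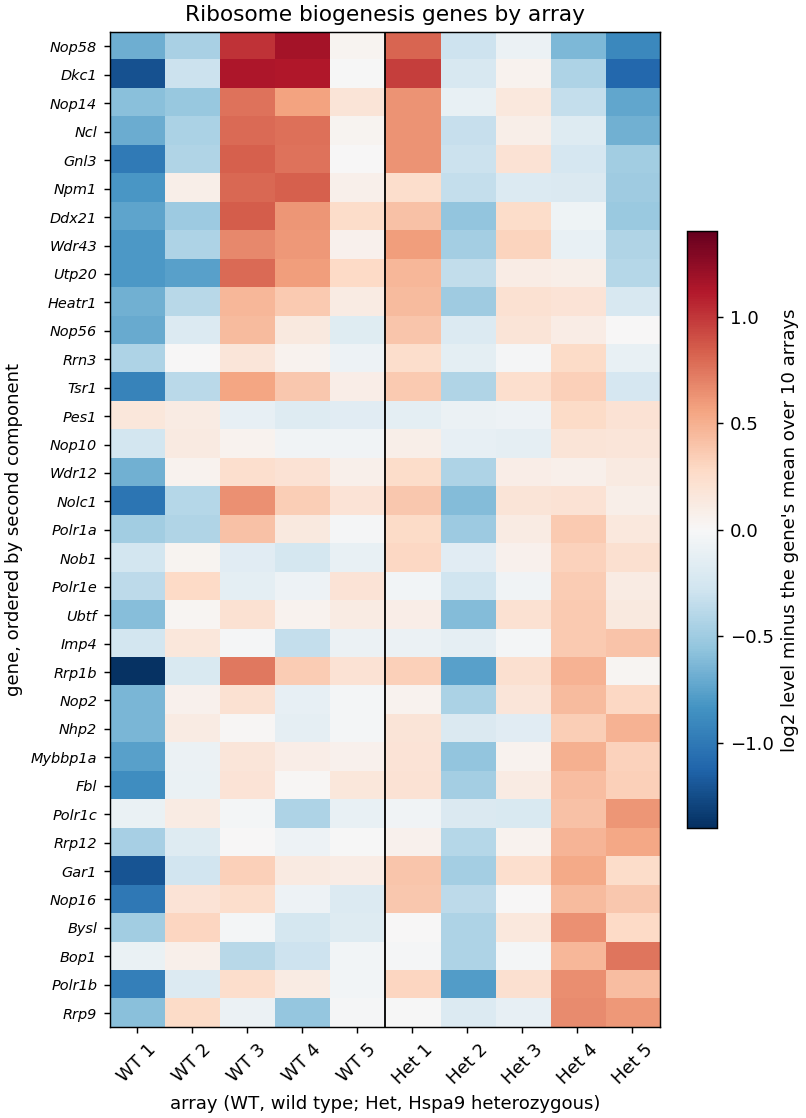
Log2 level of each of the 35 genes minus its mean over the 10 arrays (colour), with genes ordered by their score on the second component. The columns of wild type 1 and heterozygous 2 are blue for nearly all genes; heterozygous 4 and 5 are blue for the genes at the top, such as Nop58 and Dkc1, and red for those at the bottom, such as Rrp9 and Polr1b.

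The genes at the lower end of the second component were Nop58, Dkc1, Nop14, Ncl, Gnl3, Npm1, Ddx21, Wdr43 and Utp20, or 9 of the 35. Those at the upper end were led by Rrp9, Polr1b, Bop1, Bysl and Nop16. In 14 genes both heterozygous 4 and heterozygous 5 lay below wild type 3 and 4, and in 16 genes both lay above them. These arrays were picked after the values were seen, and the share of all genes with either order was not computed. On the second component of all genes tested, heterozygous 4 and 5 (-0.38 and -0.66) also lay apart from wild type 3 and 4 (0.23 and 0.28). The signs of the genotype differences followed the division by score. All 9 genes with a score below 0 had a difference below 0 and the other 26 a difference above 0. Score and difference come from the same arrays, so this is a description of the data and no second line of evidence. Ptprc, which encodes the sort marker B220, was also low on heterozygous 4 and 5, at 8.33 and 7.89 against 9.35 to 10.07 on the other arrays, and its part in the pattern was not tested.

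The position of snoRNA genes was compared as a feature that is no expression value. By RefSeq's gene coordinates (assembly GRCm38.p6), 7 of the 35 genes, or 20%, have at least 1 snoRNA gene inside their span, against 2.17% of the 14942 tested genes with coordinates and 2 of 110 other ribosome assembly genes (1.82%). Many snoRNAs are cut from introns of a host's transcript, but strand and intron position were not checked here. Of the 9 genes at the lower end, 5 have a snoRNA gene inside their span. Nop58 has 4, among them Snord11 and Snord70, and Gnl3 has 3, among them Snord19 and Snord69. Wdr43 has 3, among them Snord53 and Snord92, Ncl has Snora75 and Snord82, and Dkc1 has 1, listed as Gm25520. Of the 26 others 2 do, Nop56 with 5, Snord57 and Snord110 included, and Tsr1 with Snord91a. These counts are small and the division was drawn after the values were seen, so no test was made.

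**Figure D5:**
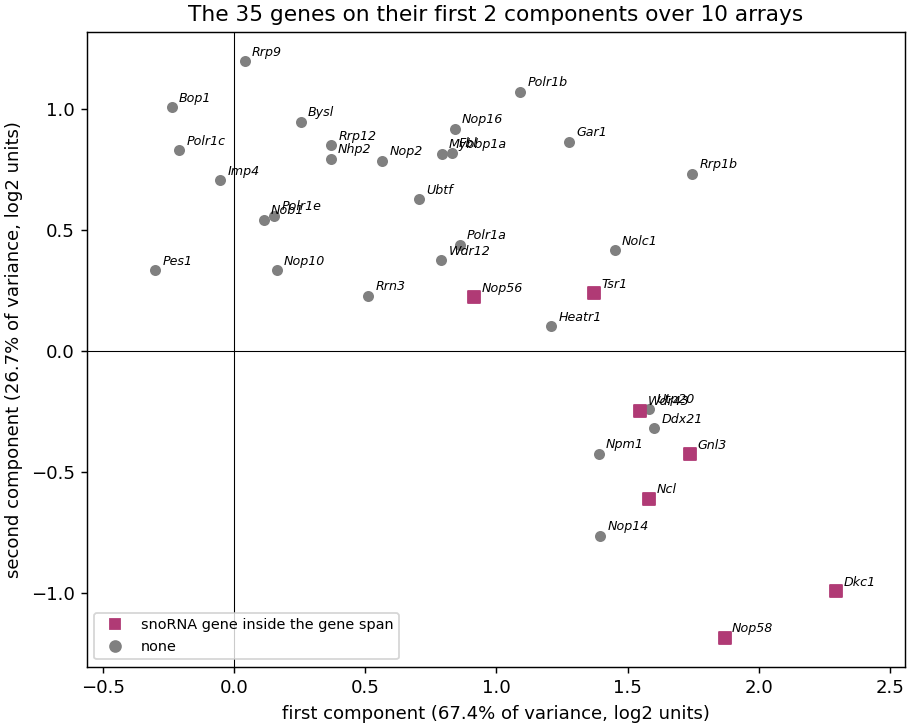
Each of the 35 genes by its score on the first (x) and second (y) component over the 10 arrays, in log2 units; squares are genes with a snoRNA gene inside their span. Of the 7 squares 5 lie below 0 on the second component, with Nop58 and Dkc1 lowest at -1.19 and -0.995.

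The genes' promoters were searched for the E-box CACGTG, the palindrome bound by Myc with its partner Max. They were also searched on both strands for the ETS factor core CCGGAAG. RefSeq windows of 300 bases, from 250 before to 50 after a transcription start (GRCm38.p6), matched 31 of the 35 genes. The E-box was found in 8 of these, or 25.8%, against 10.9% of all genes tested that have a window and 15.7% of 89 other ribosome assembly genes. By windows, of which a gene can have several, it stood in 20.5% of the members' and 9.29% of those of all genes tested. Over all windows, those of untested genes included, the share was 7.15%. The ETS core was found in 9 of 31, or 29.0%, against 17.0% of all genes tested and 46.1% of the other ribosome assembly genes. By windows it stood in 23.1% of the members', 14.8% of those of all genes tested and 8.86% of all windows. Both motifs stood in Rrn3, Tsr1 and Nop2. The stretches around the E-box are shown since they carry that shared element, with the E-box in capitals and up to 20 bases on each side within the window, 5′ to 3′ on the gene's strand:
Rrn3, chr16:13780631-13780676, plus strand: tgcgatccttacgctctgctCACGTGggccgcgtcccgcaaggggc
Rrn3, chr16:13780464-13780509, plus strand: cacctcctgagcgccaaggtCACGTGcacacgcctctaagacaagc
Nop2, chr6:125131803-125131848, plus strand: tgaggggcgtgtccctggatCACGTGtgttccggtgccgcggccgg
Pes1, chr11:3963957-3964002, plus strand: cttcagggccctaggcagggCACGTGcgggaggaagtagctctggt
Imp4, chr1:34439688-34439733, plus strand: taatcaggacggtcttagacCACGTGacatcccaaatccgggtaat
Tsr1, chr11:74898084-74898129, plus strand: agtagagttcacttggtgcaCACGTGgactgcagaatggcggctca
Wdr43, chr17:71616212-71616257, plus strand: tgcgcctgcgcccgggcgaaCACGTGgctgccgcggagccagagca
Utp20, chr10:88826765-88826797, minus strand: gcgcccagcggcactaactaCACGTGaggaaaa
Mybbp1a, chr11:72441347-72441376, plus strand: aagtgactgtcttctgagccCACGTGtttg

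The E-boxes began 215 and 48 bases before the annotated start in Rrn3, 60 before it in Nop2 and 121 before it in Imp4, and 2, 17, 24, 37 and 40 bases after it in Pes1, Wdr43, Tsr1, Utp20 and Mybbp1a. Genes with an E-box in the window lay on both sides of 0 on the second component. Wdr43 and Utp20 were just below it at -0.25 and -0.24. Mybbp1a, Nop2, Imp4, Pes1, Tsr1 and Rrn3 were above it, at 0.815, 0.786, 0.705, 0.334, 0.239 and 0.228. Of all 35 genes, 26 were above it. A match is a run of letters and does not show binding, and a window without one says nothing about the factor. Myc itself was at 8.92, 9.56, 10.64, 10.22 and 10.27 in wild type and 10.46, 9.10, 10.49, 10.74 and 10.51 in heterozygous arrays. Its lowest arrays, wild type 1 and heterozygous 2, were also low for most ribosome biogenesis genes. The genotype difference of Myc was 0.34 (SE 0.368, adjusted p = 0.697). Mycn was at 6.58 and 6.31 on these arrays and between 6.46 and 7.15 on the others. The mean of 9 Myc network genes was not set apart there, at 7.91 and 7.74 against 7.70 to 8.16 elsewhere. The mean of 17 cycling genes was lowest on wild type 1 and heterozygous 2, at 9.31 and 9.29, and between 9.49 and 9.99 on the others. The part of Myc or of the E-box in the low arrays was not tested.

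A further 110 measured genes of ribosome assembly, taken from lists of textbook factors, were compared the same way. None passed the limma threshold, with adjusted p from 0.345 to 0.997, and at an unadjusted p under 0.05, 1 was higher and 2 were lower. Over all genes tested 6.79% were higher and 4.25% lower at that level. Their median difference was -0.04, with 48 above 0 and 62 below, and it was -0.15 without wild type 1 and 0.03 without wild type 3. By list the median was -0.02 for 11 RNA polymerase I factors, -0.01 for 39 small subunit factors, -0.09 for 38 large subunit factors, 0.08 for 10 snoRNP assembly factors and -0.08 for 12 subunits and partners of the RNA exosome. The difference of smallest p was that of Ddx52, an RNA helicase of the small subunit pathway. Its wild type values were 7.79, 7.87, 8.05, 8.18 and 8.04 and its heterozygous values 7.69, 7.58, 7.62, 7.44 and 7.02. The genotypes did not overlap, with even the highest heterozygous array under the lowest of wild type, for a difference of -0.52 (SE 0.137, adjusted p = 0.345). Ddx52 was the only gene of the 110 without overlap, a state found on the lower side in 0.809% of all genes. The other lower genes of smallest p were the large subunit factor Rpf1 at -0.38, the RNA polymerase I subunit Twistnb at -0.36 and the H/ACA assembly factor Naf1 at -0.66. The higher ones were the large subunit factors Nle1 at 0.30 and Ddx56 at 0.34, the processome protein Tbl3 at 0.31 and the exosome subunit Exosc4 at 0.39. In these 4 higher genes heterozygous 4 and 5 were the highest arrays, as in Rrp9 and Bop1.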

How the data were processed

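RNA of B220+ cells from pre-B colonies was measured on 10 arrays, 5 per genotype. The authors deposited gene-level log2 values from RMA in Affymetrix's Expression Console, per the labels' protocols. Software versions, genome build and any batches of arrays or extractions are not given in the sources used here. The RMA method corrects background, equalises the arrays' distributions and summarises probes, so a shift of most genes would largely be removed. Array medians ran from 5.38 to 5.49, and the number of arrays limits the precision.

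Of 35556 probe sets, 21789 had 1 symbol, 1621 several and 12146 were not listed. Symbols were updated by Entrez identifier through the RefSeq table (GRCm38.p6). For each symbol the probe set of highest mean was kept (19938), and symbols whose mean did not exceed the percentile 25 of all means (4.52) were dropped, so that 14953 genes were tested. The comparison of genotypes used R 4.3.3 and limma 3.58.1 (lmFit, eBayes; Benjamini-Hochberg over all genes; threshold 0.05), a script tested on simulated data. The exact permutation test covers 252 arrangements of the arrays.

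The members and lists were chosen with earlier results of these data known, so no set test was made. Array values are given for the 2 members of smallest p per role plus Ncl, Npm1 and Fbl, and differences for all members and the 4 other assembly genes of smallest p per direction. Further names were chosen after their values were seen. The alternatives were other filters, probe sets, normalizations, variance models, array weights, a macrophage covariate, a replicate block and arrays left out. Marker lists of B cell precursors, macrophages, neutrophils, erythroid cells, megakaryocytes, plasmacytoid dendritic cells, T and NK cells and stroma, and lists of cycling and Myc network genes, were read as context.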

Additional observations from a re-analysis of the deposited data

Results flagged for a closer look

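Among 88 groups of 5 arrays examined, 7 held a value far from the others of its group. Chance alone marks about 1 in 20 independent groups. These groups share the same arrays and vary together, so that rate is no measure here. All 7 were low values of members on wild type 1 or heterozygous 2. On wild type 1, Ubtf was at 8.71 (others 9.32 to 9.51), Fbl at 10.37 (11.14 to 11.42), Wdr12 at 7.94 (8.67 to 8.85) and Mybbp1a at 8.39 (9.07 to 9.31). On heterozygous 2, Polr1a was at 7.50 (others 8.12 to 8.37), Ubtf at 8.69 (9.39 to 9.66) and Wdr12 at 8.19 (8.69 to 8.88). These are the arrays with the highest macrophage marker means, 8.79 and 9.36, and the part of that in the low values was not tested.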

How the results depend on the processing

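No member passed the adjusted threshold under any alternative run, leave-one-out fits included (0 to 0), and 21 members kept their direction in all 21 alternatives while 14 did not. Main counts were 0 genes past the adjusted threshold, and 1 member higher and 0 lower at an unadjusted p under 0.05. Array weights gave 137 genes of all tested, 1 member lower (7.45% of all genes), Hspa9 at -0.79 (adjusted p = 0.0381), Nolc1 at -0.062, Heatr1 at -0.010, Wdr12 at -0.013 and Rrp1b at -0.047. Without wild type 1 and heterozygous 2 there were 26 genes of all tested, 4 members higher and 1 lower, with Wdr12 at -0.0022 and Rrp1b at -0.0023. With the macrophage covariate 17 members were higher, and Dkc1 was at 0.062, Nop14 at 0.058, Utp20 at 0.29, Wdr43 at 0.26, Ncl at 0.083, Ddx21 at 0.14 and Gnl3 at 0.24. Members higher numbered 2 with every probe set as a row, where 6.71% of all rows were higher. They also numbered 2 with the other Fbl and Wdr12 probe sets (chosen after seeing the data), where Wdr12 was at -0.16. With median-centred arrays 0 members were higher, where 4.59% of all genes were. Quantile normalization put Utp20 at 0.0087 and moved the median of all genes from 0.06 to 0.014. Leaving out 1 array gave 0 to 22 genes of all tested (22 without wild type 1, 3 without heterozygous 2). Members higher then numbered 0 to 5. There were 5 without heterozygous 2, where 7.92% of all genes were higher, and 2 without wild type 2, where 8.04% were. There were 0 without wild type 1 or 4 or heterozygous 1 or 4, where 4.11% to 9.01% of all genes were higher. Members lower numbered 0 to 1, with 1 without wild type 1, where 6.01% of all genes were lower and 9.01% higher. The members' median then ran from 0.021 to 0.25, the other assembly genes' from -0.15 to 0.033 and Hspa9 from -0.84 to -0.62. Directions that turned there were those of Polr1e (-0.043 to 0.12), Ubtf (-0.062 to 0.24), Nolc1 (-0.15 to 0.26), Nop14 (-0.33 to 0.014), Utp20 (-0.24 to 0.16), Heatr1 (-0.11 to 0.18), Wdr43 (-0.25 to 0.12), Tsr1 (-0.11 to 0.27), Wdr12 (-0.12 to 0.16), Rrp1b (-0.21 to 0.33), Ddx21 (-0.40 to 0.0010) and Gnl3 (-0.33 to 0.12). The cause of these changes was not tested. As a replicate block the numbers gave 0 members higher, where 5.13% of all genes were, and 0 genes of all tested past the adjusted threshold. Same-numbered arrays correlated at -0.53, 0.21, 0.53, 0.04 and 0.31. The labels do not say whether a number marks a shared litter or day, and these correlations cannot settle it. The 5 arrays per genotype leave a median SE of 0.22 for a member's difference.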

Other observations

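The other marker lists are given as context, and 0 of their genes passed the limma threshold. The B cell precursor list (11 measured) had array means from 10.35 to 10.45 in wild type and from 9.90 to 10.39 in heterozygous samples. At an unadjusted p under 0.05, 1 was higher and 2 were lower, where 6.79% and 4.25% of all genes were. Plasmacytoid dendritic cell markers (6 measured) ran from 6.67 to 7.60 and from 7.29 to 8.54, with 5 higher at that level. T and NK cell markers (6 measured) ran from 5.35 to 5.63 and from 5.79 to 6.02, with 4 higher at that level. Only 6 of the 10 listed passed the filter on dim probe sets. Their wild type means lay near the array medians, 5.38 to 5.49. Neutrophil markers (13) ran from 4.96 to 6.80 and from 5.53 to 7.40, megakaryocyte markers (5) from 5.05 to 7.52 and from 5.39 to 7.70, erythroid markers (5) from 4.78 to 5.22 and from 5.02 to 5.25, and stroma markers (5) from 5.18 to 5.45 and from 5.42 to 5.64. At that level 1 stroma marker was higher and 0 of the neutrophil, megakaryocyte and erythroid markers were higher or lower. Over 9 genes of the Myc network the median difference was 0.09, with 0 past an unadjusted p of 0.05, and Mycn was at 0.15 (SE 0.147).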
